A study of Mus musculus with 2 samples.

Results

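Imprinted genes, 54 of them from 22 domains, were followed in the RNA of Dicer_KO mouse embryonic stem cells (mESCs). The members were a named list of genes known to be expressed mainly from 1 parental chromosome. Of the 43629 genes in the count files, 53 were members, and Peg13 was not analysed here because it had no row. By the parental allele that is usually active, 24 members were maternally expressed, 29 were paternally expressed, and Gnas makes transcripts of either kind.

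Genomic imprinting marks the maternal and the paternal copy of a gene differently in the germ line, mostly by DNA methylation of a CpG-rich control region. The mark is kept through the cell divisions of the embryo by the KRAB zinc finger protein ZFP57, its partner TRIM28 and the maintenance methyltransferase DNMT1. Many domains pair a protein-coding gene with a long noncoding RNA of the opposite parental expression, and many of the proteins act on fetal and placental growth. The counts here are totals over both alleles, so they give the level of a gene and not which copy was active.

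Both libraries came from Dicer_KO mESCs on a 129/Ola background, with blastocyst given as the tissue, cultured to passage 7 for replicate 1 and to passage 4 for replicate 2. The study derived its Dicer_KO lines from E14TG2a cells as sorted single-cell clones after paired CRISPR/Cas9 cutting of Dicer1, and grew them in serum with LIF, the cytokine that keeps mESCs undifferentiated. The labels do not say which deletion each library carries, and clone, passage and library cannot be told apart. PolyA RNA was sequenced by a reverse-stranded protocol. WT libraries were not analysed here, so the comparison is between the 2 Dicer_KO libraries, it has no replicate check, and its 95% intervals cover counting error only.

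Reads counted on genes came to 41710122 in replicate 1 and 41566184 in replicate 2, and 3 counts, the floor used for a gene at 0, correspond to 0.0719 and 0.0722 counts per M counts (CPM). Dicer1, the targeted gene, had 1343 and 1510 counts, a total over the gene that does not resolve the deleted exons. The pluripotency markers were abundant in both libraries, at a summed 9477 CPM in replicate 1 and 6030 CPM in replicate 2 for all 8 of the list. The 6 trophectoderm markers differed most among the lists for other cell types, with a summed 80.7 CPM against 5.68 CPM. Krt7 alone gave 64.1 and 1.06 CPM of these sums. Markers of primitive endoderm (18.3 and 10.6 CPM), visceral endoderm (4.46 and 3.10), fibroblasts (20.4 and 15.4), neural cells (62.2 and 92.3) and mesoderm (2.78 and 9.14) differed less in ratio, with Ttr and Postn at 0 in both libraries. Replicate 2 was scaled to replicate 1 by TMM factors, and log2 ratios are replicate 1 over replicate 2 after adding 1 count. Genes that averaged at least 10 counts over both libraries, 17788 in all, are called tested here. Over them the median log2 ratio was 0.02 with quartiles of -0.38 and 0.54.

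Sequences around the start sites of 7 members are shown first, so that their promoters can be seen beside the levels described later. They were picked with those levels known, all 7 genes were lower in replicate 1, and each window holds, on either strand, the hexamer TGCCGC or its complement GCGGCA, which ZFP57 binds when methylated. Each sequence is 300 bases of GRCm38.p6 from RefSeq, ends 50 bases after the annotated start, reads along the gene's own strand, and has the hexamer in capitals. The windows are chr6:30737800-30738099 for Mest, chr2:157559828-157560127 for Nnat, chr10:13090582-13090881 for Plagl1, chr6:58907077-58907376 for Nap1l5, chr2:152686898-152687197 for Mcts2, chr7:60005150-60005449 for Snrpn and chr12:109540746-109541045 for Meg3. Nap1l5 and Snrpn lie on the minus strand and the other five on the plus strand.
Mest: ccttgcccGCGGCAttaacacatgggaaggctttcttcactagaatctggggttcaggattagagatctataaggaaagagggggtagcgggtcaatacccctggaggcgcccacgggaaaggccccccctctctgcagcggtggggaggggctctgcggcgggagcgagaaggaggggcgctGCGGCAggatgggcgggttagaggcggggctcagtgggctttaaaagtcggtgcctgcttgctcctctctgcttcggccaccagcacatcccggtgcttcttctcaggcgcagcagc
Nnat: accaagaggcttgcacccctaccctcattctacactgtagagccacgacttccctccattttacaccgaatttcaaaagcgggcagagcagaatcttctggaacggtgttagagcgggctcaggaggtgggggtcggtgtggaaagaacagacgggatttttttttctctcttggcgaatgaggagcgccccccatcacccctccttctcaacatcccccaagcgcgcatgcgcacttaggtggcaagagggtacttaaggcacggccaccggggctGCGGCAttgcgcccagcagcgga
Plagl1: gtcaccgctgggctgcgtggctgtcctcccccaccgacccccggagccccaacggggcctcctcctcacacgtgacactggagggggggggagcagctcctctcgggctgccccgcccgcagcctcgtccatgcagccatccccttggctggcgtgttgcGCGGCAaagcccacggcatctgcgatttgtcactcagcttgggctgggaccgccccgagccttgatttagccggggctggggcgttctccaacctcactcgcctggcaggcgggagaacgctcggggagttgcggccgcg
Nap1l5: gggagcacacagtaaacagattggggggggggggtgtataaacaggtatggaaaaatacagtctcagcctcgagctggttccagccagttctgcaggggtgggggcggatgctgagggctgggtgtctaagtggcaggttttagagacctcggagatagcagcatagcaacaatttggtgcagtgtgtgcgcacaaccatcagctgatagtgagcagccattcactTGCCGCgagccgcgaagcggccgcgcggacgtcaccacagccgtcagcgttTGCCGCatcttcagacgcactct
Mcts2: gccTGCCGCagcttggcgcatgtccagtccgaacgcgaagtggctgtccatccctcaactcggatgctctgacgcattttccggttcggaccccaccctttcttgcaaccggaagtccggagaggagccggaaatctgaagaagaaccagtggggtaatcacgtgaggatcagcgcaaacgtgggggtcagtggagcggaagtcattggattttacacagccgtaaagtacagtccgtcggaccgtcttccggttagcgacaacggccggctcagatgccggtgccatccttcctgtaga
Snrpn: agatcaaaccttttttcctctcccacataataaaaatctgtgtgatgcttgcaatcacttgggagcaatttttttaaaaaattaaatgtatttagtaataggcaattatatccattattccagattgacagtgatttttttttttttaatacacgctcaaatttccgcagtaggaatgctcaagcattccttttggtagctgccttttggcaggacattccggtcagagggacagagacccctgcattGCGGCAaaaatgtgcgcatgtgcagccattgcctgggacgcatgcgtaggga
Meg3: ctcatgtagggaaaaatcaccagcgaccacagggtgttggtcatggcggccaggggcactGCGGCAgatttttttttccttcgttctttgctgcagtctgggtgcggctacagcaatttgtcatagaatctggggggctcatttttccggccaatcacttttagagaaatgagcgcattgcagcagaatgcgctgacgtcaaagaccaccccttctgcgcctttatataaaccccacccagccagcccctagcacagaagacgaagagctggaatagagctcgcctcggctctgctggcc
The hexamer was found in 3813 of 32851 promoter windows of all genes, or 11.6%. Members had a window for 43 genes, and 14 of their 66 windows held it, or 21.2%. Among members classed as having a promoter in a maternally methylated germline control region, 7 of 16 windows held it, or 43.8%. It was found in 7 of 50 windows of the other members, or 14.0%, with Meg3 and Zdbf2 counted there. The class was set after the levels were seen, so both shares depend in part on that choice. Windows of 1 gene can overlap, as do both of Mest that hold the hexamer. The median window of the members had 16.5 CpG dinucleotides and the median window of all genes 7.00. By gene, the hexamer was found in 13.1% of all genes, in 6 of 11 members of the germline region class and in 7 of 32 other members. Of the 13 members with it, the 6 not printed were Zdbf2, Copg2, Zim1, Igf2, Grb10 and Commd1, with log2 ratios of -0.10, 0.33, 0.35, 4.89, -0.12 and 0.34. None of these 6 was beyond 2-fold lower in replicate 1, so genes with the hexamer lay on either side. A match describes these letters only. Methylation and binding of ZFP57 were not measured.

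Members were spread over the whole range of expression. Of the 53 in the files, 44 had at least 10 counts in both libraries, 34 at least 100 and 17 at least 1000. Levels of different genes were compared as RPKM, counts per kb of exon and per M counts. Peg10, a gene derived from a retrotransposon and needed for the placenta, had the highest level, 74.9 and 98.2 RPKM in replicates 1 and 2, averaging 86.5 ± 16.4 (SD, n = 2). Cd81, a tetraspanin of the cell surface, followed with 90.9 and 81.0 RPKM, averaging 86.0 ± 6.94 (SD, n = 2). The means of these genes differed by less than the spread between libraries. Gab1, an adaptor of growth factor receptors, had 40.1 and 74.4 RPKM, and Impact, a regulator of GCN2 signalling, had 28.7 and 51.8. Mcts2, a retrogene of a translation factor, had 18.8 and 39.9 RPKM. All 3 were higher in replicate 2, and they stood in the same order in both libraries. Low levels were found for Rtl1 (0 and 1 count), Slc22a3 (2 and 0 counts) and Kcnk9 (0 counts in both).

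**Figure D1:**
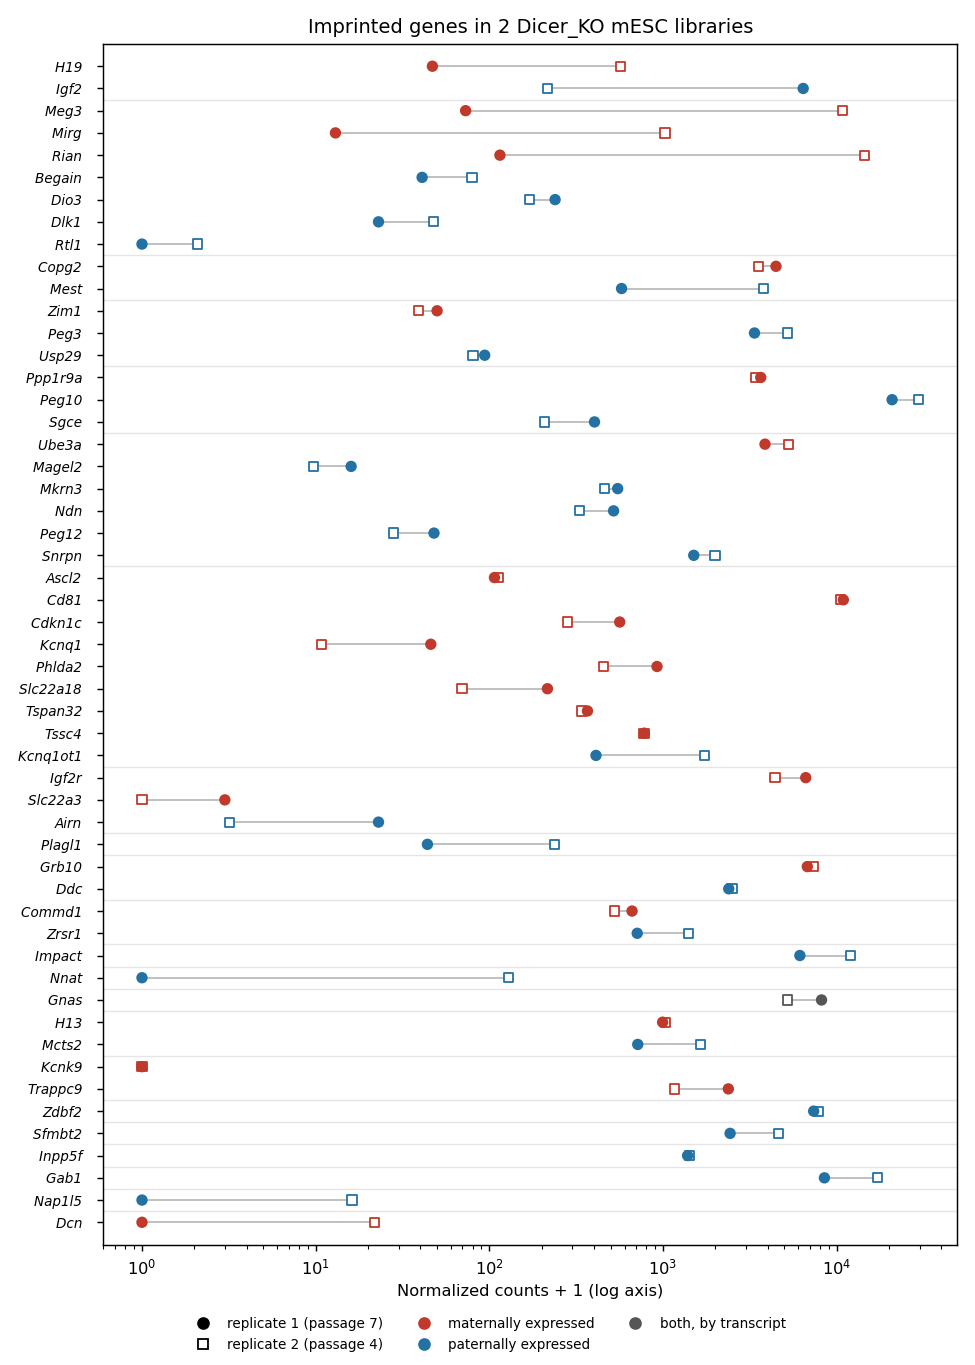
Level of the 53 imprinted genes with a row in the count files, as normalized counts plus 1 on a log axis, grouped by domain from Igf2-H19 at the top to Dcn at the bottom. Filled circles are replicate 1 and open squares replicate 2 scaled to replicate 1, red marks maternally and blue paternally expressed genes, and wide gaps are seen at Igf2, H19, Meg3, Mirg, Rian, Nnat, Nap1l5 and Dcn.

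The members differed between the libraries in either direction, with a median log2 ratio of -0.04 over the 48 tested. Beyond 2-fold, 11 members were lower in replicate 1, 22.9% of those tested, where 7.14% of all tested genes were. Another 6 members were higher in replicate 1, 12.5% of those tested, below the 14.2% of all genes. Beyond 4-fold, 8 members were lower, 16.7% against 1.55% of all genes, and 3 were higher, 6.25% against 4.17%. The remaining 31 tested members lay within 2-fold. Maternally expressed members (21 tested) had a median log2 ratio of 0.11 and paternally expressed members (26 tested) one of -0.46. Without Meg3, Rian and Mirg, which belong to 1 domain, the maternal median was 0.22. Leaving them out also left 8 instead of 11 members beyond 2-fold lower in replicate 1.

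**Figure D2:**
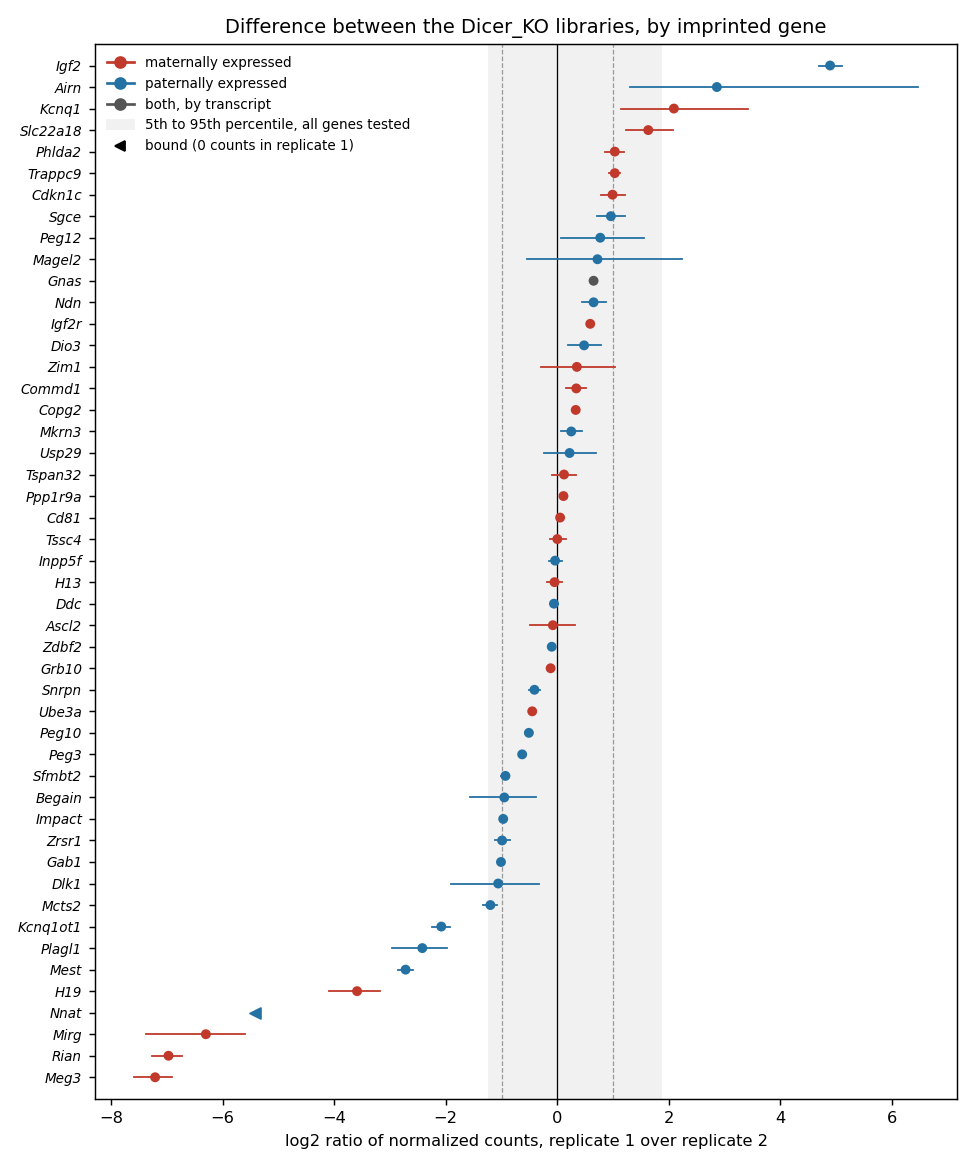
Log2 ratio of normalized counts, replicate 1 over replicate 2, for the 48 tested imprinted genes, ordered by value, with 95% counting intervals as bars. The grey band spans the 5th to 95th percentile of all tested genes, -1.23 to 1.86, dashed lines mark 2-fold, and Nnat, at 0 in replicate 1, is drawn as an arrowhead at its bound.

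Igf2 and H19 share a control region that is methylated on the paternal chromosome, Igf2 encoding a fetal growth factor and H19 a noncoding RNA. Igf2 (ENSMUSG00000048583, chromosome 7, 142650766 to 142666816, minus strand) had 6408 counts in replicate 1 and 197 in replicate 2, a log2 ratio of 4.89 and a 29.9-fold difference (95% interval 25.9 to 34.6). H19 (ENSMUSG00000000031, chromosome 7, 142575529 to 142578143, minus strand) had 46 and 519 counts, 12.3-fold higher in replicate 2 (9.07 to 17.0). The genes thus stood in opposite order in the libraries. Of the summed H19 and Igf2 counts, H19 held 0.713% in replicate 1 (95% interval 0.522% to 0.950%) and 72.5% in replicate 2 (69.1% to 75.7%). Igf2os, an antisense transcript of Igf2 that covers 1.7% of its exon length, had 38 and 2 counts. Among the 12 other tested genes within 500 kb of the domain, the median log2 ratio was 0.49. Of these 12, 5 lay beyond 2-fold, all higher in replicate 1, as were 14.2% of all tested genes. Most of the 5 had few counts, among them Igf2os, Lsp1 (50 and 8) and Tnnt3 (41 and 11). Syt8, a synaptotagmin, had 276 and 14 counts, and Tnni2, a skeletal muscle troponin, had 35 and 0.

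Trophectoderm markers moved in the same direction as Igf2. All 5 tested genes of that list were beyond 2-fold higher in replicate 1 and 3 were beyond 4-fold, with a median log2 ratio of 2.45. Of all tested genes, 14.2% were beyond 2-fold higher in replicate 1 and 4.17% beyond 4-fold. Krt7, an epithelial keratin, had 2674 and 44 counts, and Hand1, a transcription factor of trophoblast giant cells, had 229 and 15. Cdx2, the defining factor of trophectoderm, stayed near the floor with 6 counts and 1. Fewer cells of a type and less RNA per cell cannot be told apart in these bulk libraries, and the part of such cells in the levels of Igf2 and of the growth-related genes described next was not tested.

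The Kcnq1 domain, with 9 members on chromosome 7, is governed by Kcnq1ot1, a paternally expressed noncoding RNA that silences its neighbours on the same chromosome. Kcnq1ot1 (ENSMUSG00000101609, 143203458 to 143296549, minus strand) had 410 counts in replicate 1 and 1592 in replicate 2, 4.23-fold higher in replicate 2 (3.79 to 4.72). Several maternally expressed genes of the domain lay the other way. Phlda2 (ENSMUSG00000010760), a brake on placental growth, had 922 and 415 counts, 2.04-fold higher in replicate 1 (1.82 to 2.30). Cdkn1c, the cell cycle inhibitor p57, had 562 and 259 counts, a log2 ratio of 0.99 that falls just short of 2-fold. Slc22a18 (ENSMUSG00000000154), a membrane transporter, had 215 and 63 counts, 3.14-fold higher in replicate 1 (2.36 to 4.22). Kcnq1, a potassium channel that contains Kcnq1ot1 on its opposite strand, had 45 and 9 counts, a 4.59-fold difference with a wide interval (2.22 to 10.7). The genes at the other side of the domain differed little. Tssc4, a splicing factor, had 778 and 713 counts, Tspan32 366 and 310, Ascl2, a trophoblast transcription factor, 106 and 103, and Cd81 10912 and 9699, with log2 ratios from -0.08 to 0.12. Within a library, Cdkn1c over Kcnq1ot1 stood at 0.45 (0.27 to 0.64) in replicate 1 and at -2.62 (-2.81 to -2.43) in replicate 2. The 17 tested neighbours within 500 kb, which overlap those of Igf2-H19, had a median log2 ratio of 0.62. Of them, 7 lay beyond 2-fold, all higher in replicate 1, as were 14.2% of all tested genes. The neighbours include Igf2os (3.62) and further genes named imprinted, Osbpl5 (1.84), Dhcr7 (0.85), Nap1l4 (-0.31) and Th (-0.79), so they are not a background free of imprinting.

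The Dlk1-Dio3 domain on chromosome 12 holds the maternally expressed noncoding RNA genes Meg3, Rian and Mirg, which carry clusters of miRNAs and snoRNAs, and paternally expressed coding genes. Meg3 (ENSMUSG00000021268, 109541001 to 109571726, plus strand) had 72 counts in replicate 1 and 9959 in replicate 2, 151-fold higher in replicate 2 (119 to 193). Rian (ENSMUSG00000097451, 109603940 to 109661716, plus strand) had 114 and 13236 counts, 126-fold higher in replicate 2 (105 to 153). Mirg (ENSMUSG00000097391, 109729764 to 109749460, plus strand) had 12 and 941 counts, 85.3-fold higher in replicate 2 (48.6 to 166). All 3 noncoding genes were thus near the bottom of the range in replicate 1 and well counted in replicate 2. The coding members did not share this contrast. Dlk1, a Notch-related inhibitor of differentiation, had 22 and 43 counts, 2.13-fold higher in replicate 2 (1.24 to 3.73). Begain, a synaptic scaffold protein, had 40 and 72 counts, and Dio3, the deiodinase that inactivates thyroid hormone, had 238 and 156. Dio3 was the one tested member of the domain that was higher in replicate 1. Of all tested genes, 14.2% were beyond 2-fold higher in replicate 1 and 7.14% lower. The 13 other tested genes within 500 kb of the domain had a median log2 ratio of -0.08, and 4 lay beyond 2-fold. Named after their values were seen, these were Gm26945 (0 and 51 counts) and Gm24564, a snoRNA gene in Rian (0 and 30), both inside the domain and lower in replicate 1, and Degs2 (24 and 4) and Eml1 (194 and 83), both outside it and higher.

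Small RNA genes within these genes had counts in replicate 2 only. Of 28 miRNA genes annotated within Meg3, Rian, Mirg and Rtl1, 26 had a row, 8 had any count, and their counts summed to 0 in replicate 1 and 38 in replicate 2. The 13 snoRNA genes within Rian summed to 0 and 53. Several of these small RNA genes lie in exons of Rian or Mirg on the same strand. The study left out reads on overlapping regions, so counts of such genes may be too low in both libraries. The libraries were made from polyA RNA, so these counts are not levels of mature miRNAs, which DICER cuts from their precursors. The mature sequences of the miRNA genes of this domain with at least 3 counts in replicate 2 are given from RefSeq, 5′ to 3′, with the seed, bases 2 to 8, in capitals, to show which miRNAs are encoded there.
mmu-miR-433-5p: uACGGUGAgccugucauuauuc
mmu-miR-433-3p: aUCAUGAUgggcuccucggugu
mmu-miR-127-5p: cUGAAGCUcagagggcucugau
mmu-miR-127-3p: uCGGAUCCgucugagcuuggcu
mmu-miR-3071-5p: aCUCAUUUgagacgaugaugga
mmu-miR-3071-3p: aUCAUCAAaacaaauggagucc
mmu-miR-1188-5p: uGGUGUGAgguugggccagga
mmu-miR-1188-3p: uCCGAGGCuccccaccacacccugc
mmu-miR-453: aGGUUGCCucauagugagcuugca
mmu-miR-3072-5p: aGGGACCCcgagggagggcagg
mmu-miR-3072-3p: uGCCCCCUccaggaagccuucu
Mir433 had 11 counts in replicate 2, Mir3072 had 10, Mir453 had 6, and Mir127, Mir3071 and Mir1188 had 3 each. Mir433 and Mir127 lie on the strand opposite to Rtl1, which had 0 counts and 1, and Mir3071 lies on its strand. No pair of these sequences shares a seed. Elsewhere, Mir675 in H19 and Mir335 in Mest had 0 counts in both libraries, and Mir483 in Igf2 had 1 and 0. Mir675 lies in an exon of H19 on the same strand, so its reads may have been left out as overlapping. Gm23134, annotated as a miRNA gene within Nnat on the opposite strand, had 6 and 21 counts.

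Mest, Plagl1 and Nnat are paternally expressed from maternally methylated promoters, and all 3 were lower in replicate 1. Mest (ENSMUSG00000051855, chromosome 6, 30723547 to 30748465, plus strand), an enzyme of the hydrolase fold, had 576 and 3485 counts, 6.59-fold higher in replicate 2 (6.03 to 7.20). Copg2, a maternally expressed coatomer subunit that overlaps its end on the opposite strand, had 4468 and 3268 counts, a log2 ratio of 0.33. The overlap is 23.1% of the exon length of Mest and 17.8% of that of Copg2. The study left out reads on overlapping regions, and whether its counting used strand is not given in the sources used here, so these counts may leave out the overlap. Copg2 over Mest was 2.96 (2.83 to 3.08) on the log2 scale in replicate 1 and -0.09 (-0.16 to -0.02) in replicate 2. Plagl1 (ENSMUSG00000019817, chromosome 10, 13060504 to 13131694, plus strand), a zinc finger factor that regulates other imprinted genes, had 43 and 216 counts, 5.47-fold higher in replicate 2 (3.93 to 7.77). Nnat, a proteolipid of neurons and endocrine cells, had 0 and 118 counts, at least 42.8-fold higher in replicate 2 against the floor of 3 counts. The genes around these domains had medians of 0.07 for Mest, -0.24 for Plagl1 and 0.16 for Nnat.

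Nnat, Nap1l5, Mcts2 and Zrsr1 are intronless or small genes that lie within larger hosts. This allows a comparison at the same place in the genome. Nap1l5 had 0 and 14 counts, at least 5.08-fold higher in replicate 2. Mcts2 had 714 and 1513 counts, 2.31-fold higher in replicate 2 (2.11 to 2.52), and Zrsr1, a splicing factor retrogene, had 709 and 1292, 1.98-fold (1.81 to 2.18). All 4 inner genes were lower in replicate 1. Their hosts, chosen after the values were seen, were not lower to this degree. Blcap, around Nnat, had 1339 and 1325 counts, Herc3, around Nap1l5, had 1410 and 1094, H13, around Mcts2, had 993 and 947, and Commd1, around Zrsr1, had 662 and 482, with log2 ratios of -0.11, 0.24, -0.05 and 0.34. H13 over Mcts2 was 0.48 (0.34 to 0.62) in replicate 1 and -0.68 (-0.79 to -0.56) in replicate 2, on the log2 scale of counts within a library. Commd1 over Zrsr1 was -0.10 (-0.25 to 0.06) and -1.42 (-1.58 to -1.27). Zrsr1 shares 9.2% of its exon length with Commd1 on the opposite strand, a part that the counts of both may leave out.

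**Figure D3:**
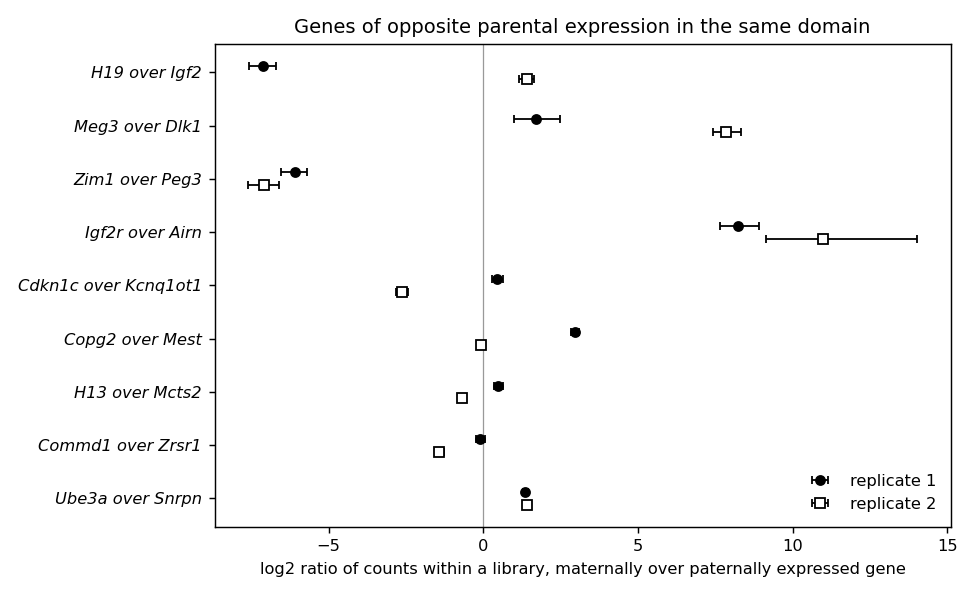
Log2 ratio of the counts of a maternally over a paternally expressed gene of the same domain, within replicate 1 (filled circles) and replicate 2 (open squares), with 95% counting intervals. The intervals of the libraries overlap for Ube3a over Snrpn, at 1.36 and 1.41, and are apart for the other pairs. They cover counting error only, and how often other pairs of genes come apart was not tested.

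A class of 15 paternally expressed genes with a promoter in a maternally methylated germline control region was set after the values were seen. It rests on general knowledge and may be incomplete. Zdbf2 and Inpp5f, paternally expressed with log2 ratios of -0.10 and -0.04, were placed outside it. The values of the class and of the other paternally expressed genes depend in part on this choice. Of the class, 13 genes were tested. Of these, 10 were lower in replicate 1 and 3 higher, with a median log2 ratio of -0.97. Beyond 2-fold, 5 were lower, 38.5% of the class, and beyond 4-fold 4 were lower, 30.8%, beside 7.14% and 1.55% of all tested genes. The other 13 tested paternally expressed genes had a median of -0.04. Impact, a member of the class, had 6132 and 11040 counts, a log2 ratio of -0.97. Peg10 had 20826 and 27200 counts, and Peg3, a zinc finger protein of maternal behaviour and growth, had 3360 and 4762, with log2 ratios of -0.51 and -0.63. The exceptions were Airn, Sgce and Usp29. Airn, the noncoding RNA that silences Igf2r, had 22 counts and 2, a ratio of 10.1 (2.48 to 88.7) toward replicate 1. Sgce, a sarcoglycan that shares its promoter region with Peg10, had 402 and 189 counts, a log2 ratio of 0.96. Usp29, a ubiquitin protease gene, had 93 and 73 counts, a 1.17-fold difference whose interval (0.852 to 1.61) included none. Ppp1r9a, a maternally expressed neighbour of Peg10 with a role in the neuronal cytoskeleton, had 3650 and 3113 counts, a log2 ratio of 0.11.

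In the Igf2r domain on chromosome 17, Igf2r, the receptor that clears IGF2, had 6630 and 4049 counts, 1.50-fold higher in replicate 1 (1.45 to 1.56). Igf2r over Airn was 8.24 (7.64 to 8.91) in replicate 1 and 10.98 (9.13 to 14.03) in replicate 2. Airn was far below Igf2r in both libraries. Zim1 and Peg3 also kept their order, with Zim1 at 49 and 35 counts and Zim1 over Peg3 at -6.10 (-6.54 to -5.69) and -7.09 (-7.61 to -6.61).

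The Snrpn domain on chromosome 7, whose loss underlies the Prader-Willi and Angelman syndromes in humans, differed little. All 6 members were within 2-fold, as were most tested genes, of which 14.2% were beyond 2-fold higher in replicate 1 and 7.14% lower. Snrpn, a protein of the spliceosome, had 1501 and 1829 counts, a log2 ratio of -0.41. Ube3a, a ubiquitin ligase that is imprinted mainly in neurons, had 3862 and 4853 counts, a log2 ratio of -0.45. Snrpn shares 27.3% of its exon length with Snurf and Gm38393, and Ube3a shares 8.7% with the antisense transcript Snhg14, parts that their counts may leave out in the same way. The small intronless genes of the domain, Ndn, Mkrn3, Peg12 and Magel2, had log2 ratios of 0.65, 0.25, 0.77 and 0.72, the last from 15 counts and 8. All 4 values lay on the other side of 0 from that of Snrpn, which shares their paternal expression, and the interval of Magel2 (-0.54 to 2.23) included no difference.

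Genes imprinted mainly in the placenta or by maternal histone marks made up the next group. Gab1 (ENSMUSG00000031714, chromosome 8, 80764438 to 80880519, minus strand) had 8491 and 15720 counts, 2.02-fold higher in replicate 2 (1.96 to 2.07). Sfmbt2, a polycomb protein, had 2431 and 4265 counts, 1.91-fold higher in replicate 2 (1.82 to 2.01). An intron of Sfmbt2 holds 119 annotated miRNA genes, of which 107 had a row, with summed counts of 0 and 25. Both genes were just at or under the 2-fold line. Slc38a4, an amino acid transporter outside the list that is imprinted in the same way, had 30468 and 14760 counts, a log2 ratio of 0.92 in the other direction. It lies on chromosome 15, where the tested genes had a median log2 ratio of 0.59. Jade1 and Smoc1, further imprinted genes outside the list, had log2 ratios of -0.83 and 0.04. Dcn, a proteoglycan of connective tissue, had 0 and 19 counts, at least 6.89-fold higher in replicate 2.

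Trappc9 (ENSMUSG00000047921, chromosome 15, 72589620 to 73061204, minus strand), a trafficking protein around Peg13, had 2375 and 1071 counts, 2.04-fold higher in replicate 1 (1.89 to 2.19). The 682 tested genes of chromosome 15 had a median log2 ratio of 0.59, higher than the 0.02 of all genes. The part of this shift in the ratio of Trappc9 was not tested. Gnas, the stimulatory G protein subunit, had 8173 and 4781 counts, a log2 ratio of 0.65, with 22.0% of its exon length shared with Nespas and Gm20721 on the opposite strand. Grb10, an inhibitor of insulin signalling, had 6769 and 6776 counts, its neighbour Ddc 2388 and 2288, Zdbf2 7364 and 7227, and Inpp5f 1384 and 1303. These 4 genes had log2 ratios from -0.12 to -0.04.

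**Figure D4:**
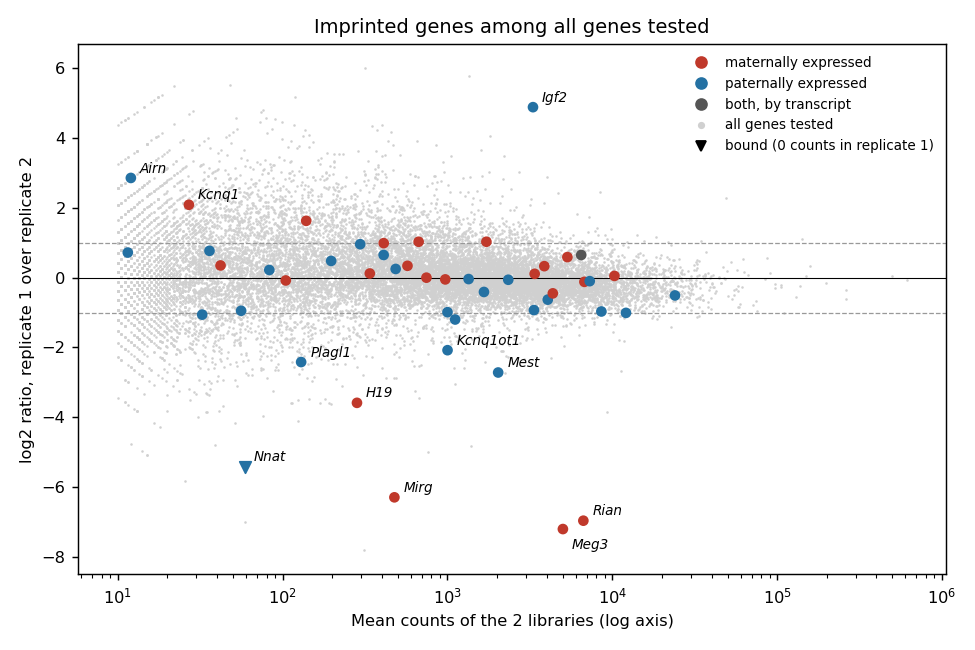
Log2 ratio, replicate 1 over replicate 2, against the mean counts of both libraries on a log axis, for all 17788 tested genes (grey) and the 48 tested imprinted genes (coloured). Members beyond 4-fold are named, and Igf2, Meg3 and Rian lie outside the cloud of genes with similar counts.

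Regulators of imprints were expressed in both libraries. Zfp57 had 14438 and 23097 counts, a log2 ratio of -0.80, and Trim28 43998 and 72757, a log2 ratio of -0.85. Dnmt1 had 17006 and 17773 counts, and Uhrf1, which guides DNMT1 to newly copied DNA, 13402 and 15821. None of the 9 maintenance genes lay beyond 2-fold, and their median log2 ratio was -0.42. Of 5 genes that set methylation in the germ line or early embryo, 2 lay beyond 2-fold, both lower in replicate 1. For both lists the share of all tested genes beyond 2-fold was 7.14% lower and 14.2% higher in replicate 1. Dnmt3b, a methyltransferase, had 5495 and 17958 counts, a log2 ratio of -1.83, and its cofactor Dnmt3l had 2142 and 5787, a log2 ratio of -1.56. The oxidases Tet1, Tet2 and Tet3 had log2 ratios of -0.68, -0.75 and 0.15, and 4 histone methyltransferase subunits, Eed, Ezh2, Suz12 and Ehmt2, had a median of -0.45. The part of these regulators in the levels of the imprinted genes was not tested.

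A list of 23 further imprinted genes outside the members was read for comparison. It had 22 genes in the files and 15 tested, with a median log2 ratio of 0.70, 4 of the 15 beyond 2-fold higher in replicate 1 and 0 lower, beside 14.2% and 7.14% of all tested genes. Pon3 had 399 and 98 counts, Pon2, its neighbour in the Peg10 region, 1136 and 452, Osbpl5 387 and 99, and Atp10a 914 and 352. Among the 48 tested members, 12.5% were higher and 22.9% lower.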

How the data were processed

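RNA was measured in 2 Dicer_KO libraries of 1 group. The authors trimmed reads with Trimmomatic, aligned them to mm10 with STAR (2.4.2a per the submitters' processing notes) and assigned them to Ensembl genes by featureCounts (1.4.5-p1), ignoring overlapping regions. They deposited raw counts. The totals of 41710122 and 41566184 counts put 3 counts at 0.0719 and 0.0722 CPM.

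Replicate 2 was scaled to replicate 1 by edgeR (4.0.16, R 4.3.3) TMM factors, and log2 ratios were taken with a pseudocount of 1 over the 17788 genes that averaged at least 10 counts. Intervals of ratios are exact binomial at 95%. With 2 libraries of 1 group there was no comparison between groups to test, and no p-value is given. The scaling was tested on simulated data in which a small share of genes was raised in replicate 1 and the rest left unchanged. It was not tested on libraries that differ as widely as these. Gene positions and exon lengths came from GENCODE M21, in which 1081 gene IDs had no entry, and may differ from the authors' annotation. Genes were given in full where beyond 2-fold and averaging at least 100 counts, as were opposite pairs and the 5 highest RPKM. Members and lists were chosen with earlier results of these data known. Parental expression and the class of germline-region promoters were assigned from general knowledge. Alternatives were DESeq2 (1.42.0) size factors, total counts, other count minimums, a pseudocount of 0.1 and a 1000 kb window.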

Additional observations from a re-analysis of the deposited data

How the results depend on the processing

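No paired analysis was possible because 1 group holds both libraries. Scaling by total counts moved the median log2 ratio of all tested genes from 0.02 to 0.14, that of paternally expressed members from -0.46 to -0.34, and that of paternally expressed genes with promoters in maternally methylated germline regions from -0.97 to -0.85, so these medians moved with the shift of all genes. Under it the number of members beyond 2-fold lower in replicate 1 was 9 instead of 11, without Dlk1 and Gab1, and Sgce and Cdkn1c came to lie beyond 2-fold higher. A minimum mean of 50 counts left 1 member beyond 4-fold higher in replicate 1 instead of 3, since Airn and Kcnq1 have fewer counts. With a 1000 kb window the medians of neighbouring genes moved to 0.17 for Snrpn, 0.45 for Kcnq1, -0.14 for Plagl1, -0.03 for Nnat, -0.16 for Zdbf2, -0.03 for Sfmbt2, 0.13 for Inpp5f and -0.11 for Gab1. Those of Peg10 (0.82 to 0.42), Gnas (0.32 to -0.01) and Zrsr1 (-0.49 to -0.27) moved within the counting interval of the genes at the median. So did those of Mest (0.07 to -0.05) and Dlk1-Dio3 (-0.08 to 0.04). The medians of Gnas, Mest, Dlk1-Dio3, Nnat, Sfmbt2 and Inpp5f changed sign. Members with at least 10 counts numbered 48 over both libraries and 47 when either library was left out. Of 255 single-gene ratios under 3 alternatives, 0 changed sign from beyond 2-fold, 210 stayed within the counting interval and 45 moved beyond it. With Nnat at its bound the medians were the same. The main limit is that the 2 libraries differ in passage and possibly in clone: counting intervals do not cover the spread between cultures, and totals do not show which parental allele was active.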
